A study of Homo sapiens with 151 samples.

Results

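Single-list regions are places in the HepG2 genome where only 1 of the preferred peak lists had a peak. To find them, the central 100 bp of every peak were taken, windows that overlap or touch were merged, and regions with peaks of exactly 1 list were kept. Of 212005 merged regions, 117310 (55.3%) had a single owner, and they held 117495 of 1410609 peaks (8.33%). The rule uses the peak calls themselves, so the numbers, the shares and the signal of single-list peaks are descriptions and were not tested. Tests below concern distance to genes, base sequence and 6 lists that did not enter the merge. The rule did not read genes or sequence. A peak can hardly be single-list where many lists meet, however, so position and the sequence tied to it are not independent of the rule.

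HepG2 is a human liver cancer cell line. Each list comes from ChIP-seq of 1 DNA-associated protein (DAP) that carried a FLAG tag, pulled down with an anti-FLAG antibody by the CETCh-seq method, in which the tag is added to the protein's own gene. Of 127 lists, the study marked 6 as non-preferred and the others as preferred data sets (15 of DAPs that are not transcription factors, TFs, and the rest of TFs), and 24 input samples without pulldown served as background for the peak calls. All cells were untreated as far as the labels say, and each DAP had 1 list, so no replicate lists can be compared. The preferred lists are a part of the DAPs that the study used, so "single-list" means alone among these lists and not alone in the cell. Preferred lists held 195 to 61748 peaks (median 8680), and the sequencing depth behind them is unknown. Number of peaks and number of owned regions moved together across lists (Spearman's rho 0.90 over all preferred lists, a description, since both count the same peaks). Number of peaks and the share of a list's peaks that were single-list did not (rho 0.08).

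A TF usually reads a short DNA motif, and many TFs are also found together at open promoters, where peaks of many DAPs lie side by side. C2H2 zinc finger proteins, the largest family of human TFs, can read long and particular sequences. Many of them carry a KRAB domain, which recruits silencing complexes, and several KRAB proteins are known to bind transposable elements.

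The sequences that set single-list regions of a list apart are shown first. For each list with at least 200 single-list regions on odd-numbered and on even-numbered autosomes (53 lists), an 8-mer was chosen on the odd-numbered ones. The choice went by enrichment over the single-list windows of other lists, so a rare word could be chosen. The 8-mer was then counted on the even-numbered autosomes, on both strands. The 5 windows that follow are, for 4 of the 5 lists with the largest held-out share and for ZNF160, the single-list region of highest signal that holds the list's 8-mer. These windows were chosen after the shares were seen. Each is the central 100 bp of the peak on the plus strand of hg38, 5′ to 3′, and capitals mark the 8-mer or its reverse complement.
ZNF865, chr12:6925057-6925156, intron, 2852 bp from the TSS of ATN1: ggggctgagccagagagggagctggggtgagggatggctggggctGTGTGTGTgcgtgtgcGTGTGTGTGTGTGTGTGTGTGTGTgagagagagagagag
FOSL1, chr10:113093612-113093711, intron: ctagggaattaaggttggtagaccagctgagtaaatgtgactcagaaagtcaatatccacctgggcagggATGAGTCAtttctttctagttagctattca
ZNF329, chr20:47681153-47681252, intron: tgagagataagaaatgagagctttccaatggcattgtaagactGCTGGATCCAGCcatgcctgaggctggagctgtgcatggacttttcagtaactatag
ZNF646, chr18:6920266-6920365, exon, 9489 bp from the TSS of LINC00668: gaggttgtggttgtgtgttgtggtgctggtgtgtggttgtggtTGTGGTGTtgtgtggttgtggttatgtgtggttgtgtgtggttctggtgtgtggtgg
ZNF160, chr1:113479814-113479913, intron, 89349 bp from the TSS of MAGI3: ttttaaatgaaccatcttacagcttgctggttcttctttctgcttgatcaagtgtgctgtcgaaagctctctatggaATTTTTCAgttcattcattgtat

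A further pair shows textbook motifs in capitals, in the single-list region of highest signal that holds the motif, for lists that ranked first for it. The octamer, ATGCNAAT, is the site of POU factors such as POU2F1. The NFI palindrome, a pair of inverted arms 5 bases apart, is the site of nuclear factor I dimers such as those of NFIB.
POU2F1, chr19:49640309-49640408, intergenic, 227 bp from the TSS of RRAS: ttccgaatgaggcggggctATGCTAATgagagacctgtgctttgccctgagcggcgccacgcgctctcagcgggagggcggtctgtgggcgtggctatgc
NFIB, chr16:22280139-22280238, intron: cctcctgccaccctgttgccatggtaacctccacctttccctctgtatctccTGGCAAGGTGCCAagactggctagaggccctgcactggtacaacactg

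Every preferred list owned at least 37 single-list regions, but ownership was uneven. The median list owned 410 (quartiles 163 and 1028). The 10 lists that owned most held 44.5% of the single-list regions and 28.1% of the peaks, 14 lists held 50% of the regions and 61 lists held 90%. With only the 5000 strongest peaks of each list, 2 of the 10 lists that owned most were still among the first 10. ZNF865, a C2H2 zinc finger protein, owned 11751 regions, or 10.0% of all of them with 1.61% of the peaks. ZBTB12, a BTB zinc finger protein, owned 7478, SALL1, a spalt zinc finger protein, 6552, and ZFP91, a zinc finger protein that also acts as a ubiquitin ligase, 4939. MGA, a MAX partner with a T-box, owned 4912 and ZMYM4, a MYM-type zinc finger protein, 4714. The next were NCOA2, a coactivator of nuclear receptors, with 3239, POU2F1 with 2957, ZMYM2, a relative of ZMYM4, with 2821 and SMAD7, an inhibitory SMAD, with 2802. SALL1, ZBTB12, MGA and ZMYM4 are also long lists, whereas ZNF865 had 22769 peaks.

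As a share of its own peaks, the median list had 5.82% in single-list regions (quartiles 3.94% and 10.2%). ZNF865 had 51.6%, SCMH1, a Polycomb protein, 40.5% and ZNF334, a KRAB zinc finger protein, 34.4%. The SCMH1 and ZNF334 lists are short, with 195 and 889 peaks. Below them came YBX3, a Y-box protein, with 22.3%, NFIB with 20.6%, ZNF646 with 19%, CENPX, a centromere protein, with 17.1%, FOSL1, a Fos family partner of Jun, with 15.6%, ZMYM2 with 14.4% and ZNF688, a KRAB protein, with 13.7%. At the other end, ZNF140, a KRAB protein, had 1.09%, NPAS2, a clock factor, 1.23%, TTF1, a termination factor of RNA polymerase I, 1.73%, ZNF544, a KRAB protein, 1.97% and KLF15, a Krüppel-like factor, 2.28%. The median share was 5.72% for KRAB lists, 5.82% for other TF lists (3 with SCAN and KRAB domains among them) and 4.68% for DAPs that are not TFs.

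**Figure D1:**
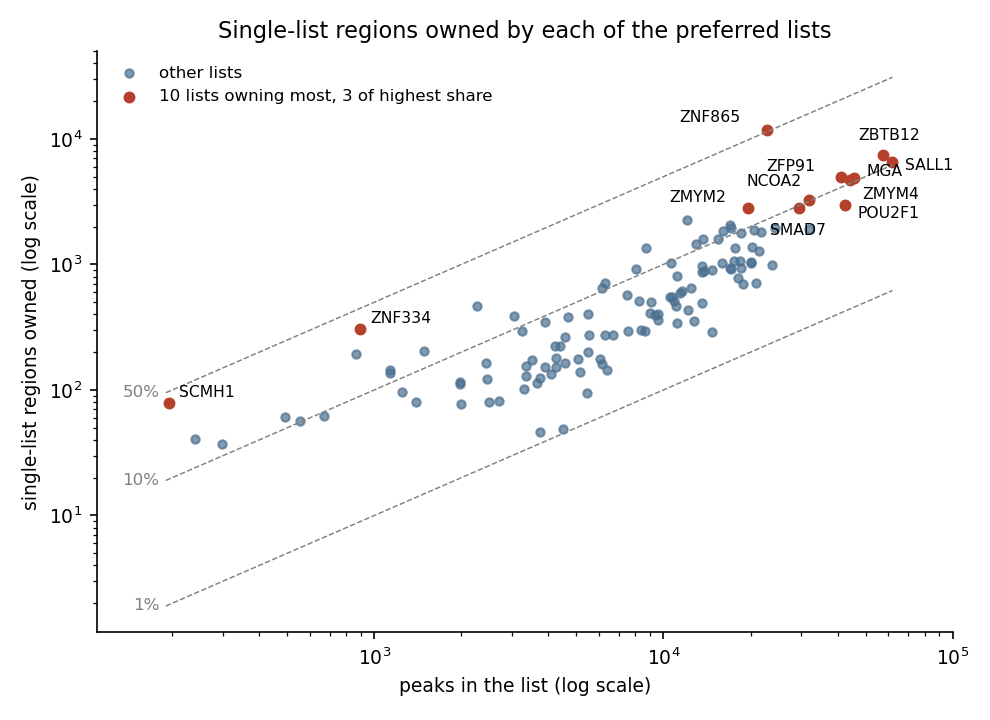
Single-list regions owned (vertical axis, log scale) against the peaks in the list (horizontal axis, log scale), 1 point per preferred list; dashed lines mark 1%, 10% and 50% of the list's peaks. ZNF865 lies at the 50% line with 11751 regions, SCMH1 and ZNF334 lie highest among short lists, and most long lists lie near 10% or lower.

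Of the strongest single-list regions of the 10 lists that owned most, with chromosomes 8 and Y left out, 7 lay within 1077 bp of a shared region. For ZNF865 it is the window near ATN1 printed above, with a signal of 546.9 that ranked it at percentile 99.0 of the list, where 100 is the strongest peak. The strongest region of ZFP91 had a signal of 986.3 at chr5:139404221-139404320, 182 bp from the TSS of SPATA24 and 309 bp from a shared region, in a peak of 1106 bp. POU2F1 had its strongest at chr17:42388590-42388689, 198 bp from the TSS of STAT3 and 213 bp from a shared region, with a signal of 772 in a peak of 800 bp. In ZBTB12 the strongest, with a signal of 745.3, was at chr11:44082800-44082899 in an intron, 11390 bp from a TSS, with the nearest shared region 12965 bp away. SALL1 had its strongest at chr2:111918496-111918595 in an intron, 19939 bp from the TSS of MERTK. For ZMYM4 it was at chr5:141564277-141564376 in an exon, 25965 bp from the nearest shared region. NCOA2 had its strongest at chr4:70193041-70193140, between genes and 2634 bp from the TSS of ODAM. The strongest of MGA was at chr14:101760194-101760293, of ZMYM2 at chr12:114738721-114738820 and of SMAD7 at chr20:25065792-25065891. Of these 10 windows the one of ZNF865 alone held the list's 8-mer.

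How much of a list's single-list set a repeated sequence word accounted for differed widely. ZNF865 stood first: ACACACAC, a run of the CA repeat, was in 5513 of 6022 held-out single-list windows (91.5%, 95% Wilson interval 90.8 to 92.2), against 32.3% of the list's own shared windows and 2.08% of the single-list windows of other lists. Over all 212005 merged regions 7.97% held this word, and 64.0% of those were single-list regions of ZNF865. FOSL1 followed with ATGAGTCA, an AP-1 site, in 34.1% of held-out windows (interval 30.8 to 37.6), against 14.8% of its shared windows and 0.39% of the single-list windows of other lists. ZNF329, a zinc finger protein without a KRAB domain, had GATCCAGC in 25.3% (22.4 to 28.4), against 0.48% of its shared windows. ZNF646 had ACACCACA in 22.6% (20.3 to 25.1), against 2.32% of its shared windows. ZMYM2 had TAATCCCA, a word found in Alu elements, in 17.4% (15.6 to 19.4), against 7.47% of its shared windows and 3.67% of the single-list windows of other lists. Intervals cover counting error only, since neighbouring and repeated sequences are not independent.

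The next lists were all of zinc finger proteins. ZNF850, a KRAB protein, had GCCCTTCA in 17.2% of held-out windows, ZFP90, a KRAB protein, GTGCTATA in 15.4%, ZNF160, a KRAB protein, ATTTTTCA in 15.4%, ZSCAN25, which has SCAN and KRAB domains, ACCCCTGC in 14.6% and ZNF430, a KRAB protein, CATGTAAG in 13.5%. In the shared windows of the same lists, the word was in 0.81% for ZNF850, 0.09% for ZFP90, 0.19% for ZNF160, 2.75% for ZSCAN25 and 0.11% for ZNF430. In these 10 lists the interval of the single-list share lay above the value of the list's own shared windows. The 8-mer reached 10% in these 10 lists alone, and in 24 of the 53 lists it was in under 1% of held-out windows. In 10 of those 24 no held-out window had it. A low share thus describes the chosen word and does not show that a list's windows have no common sequence.

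**Figure D2:**
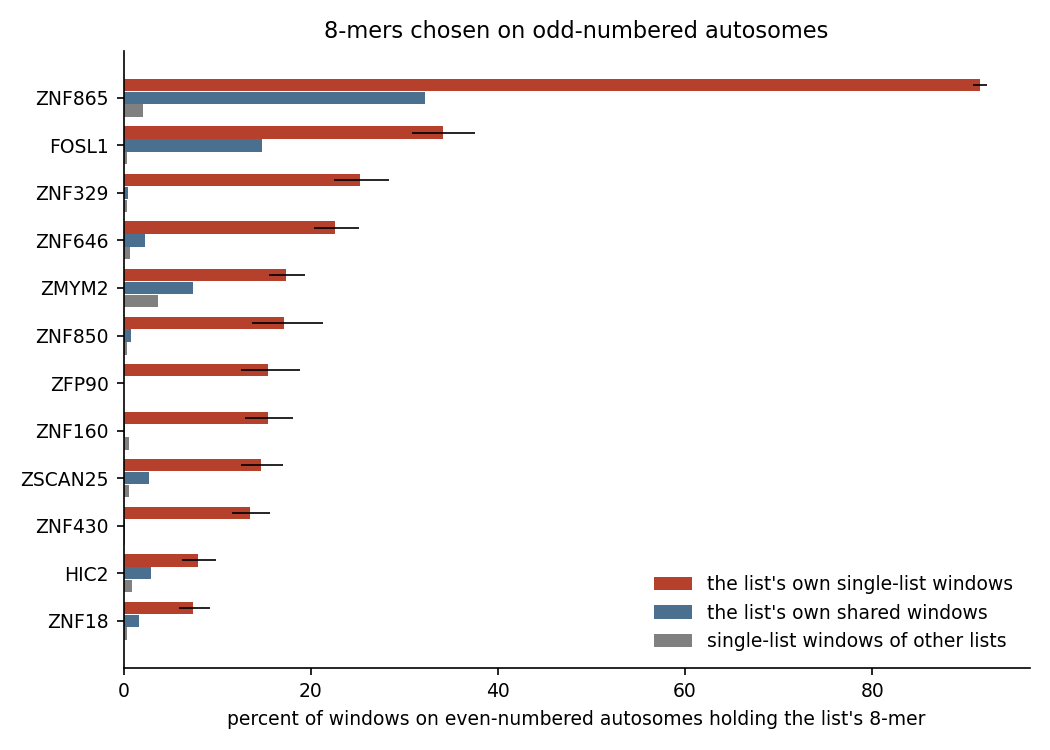
Percent of windows on even-numbered autosomes that hold the 8-mer chosen for the list on odd-numbered autosomes (horizontal axis), for the 12 lists of largest share; red bars are the list's own single-list windows with 95% Wilson intervals, blue bars its own shared windows and grey bars the single-list windows of other lists. ZNF865 stands alone at 91.5%, and from FOSL1 (34.1%) downwards the red bar is the longest of each set.

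Of the 10 lists that owned most, the other 8 had words that few windows held. NCOA2 had AATATTTA in 5.34% of held-out windows, ZBTB12 GTTCTAGA in 4.37%, ZFP91 CCCTTTAA in 2.95%, ZMYM4 ACCAATCA in 2.89% and SALL1 CCTTGACC in 2.48%. MGA had CACGTGGC, which holds an E-box, in 2.02%, POU2F1 TATGCAAA, which overlaps the octamer, in 1.69% and SMAD7 CAAGTTCG in 0.07%. In other lists' single-list windows these words were in 0.04% to 0.70%.

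In each of the 10 lists whose word reached 10%, single-list peaks with the word had the higher median signal percentile. The signal percentile ranks a peak in its own list. The median percentile of ZNF329 was 94.5 for the 422 single-list regions with GATCCAGC and 61.3 for those without. ZNF850 had 91.7 with its word and 36.1 without, and ZNF646 had 72.2 with and 36.3 without. ZNF430 had 61.4 with its word and 22.5 without, and ZNF865 had 54.8 with and 14.7 without. The order was the same in FOSL1 (49.5 with the word, 33.9 without) and ZMYM2 (35.3 with, 27.9 without). Among the other lists the order went both ways: in HES4 the 34 regions with its word had 22.7, against 27.1 without, and in SRY the 25 regions with its word had 15.8, against 19.7 without. These are descriptions of 1 list each.

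Several of these words lie in repeated sequence. A window was called high-copy when the median number of genome copies of its 85 16-mers, both strands counted, was at least 10. Over all merged regions 17.2% of windows were high-copy. Of the single-list windows of ZNF430, 97.8% with the word and 23.5% without it were high-copy. In ZFP90 the shares were 94.5% with the word and 47.4% without, in ZMYM2 94.0% and 45.9%, in ZNF850 91.8% and 29.1%, and in ZNF865 60.1% and 15.6%. In ZNF430, ZFP90, ZMYM2 and ZNF850 the windows without the word were thus also above the share over all regions. In ZNF329 the shares were 1.66% with the word and 6.43% without, and in FOSL1 8.85% and 12.8%. The reference does not mark repeat families, so no window is assigned to one here, and the naming of Alu elements above is background.

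Textbook motifs of 30 tagged proteins or their families were searched next, as 32 pairs of a list and a motif, on both strands of the same 100 bp windows. Motifs that share letters overlap: CACGNG holds the E-box CACGTG, and the DR4 element is a direct repeat of the nuclear receptor site AGGTCA. The AP-1 site, TGANTCA, was in 972 of 1358 single-list windows of FOSL1 (71.6%, 69.1 to 73.9), against 44.7% of its shared windows and 2.71% of the single-list windows of other lists. Over all merged regions 4.0% held it. The octamer was in 79 of 2957 windows of POU2F1 (2.67%, 2.15 to 3.32), against 1.09% of its shared windows and 0.724% of all regions. The TALE site of MEIS homeodomain proteins, TGACAG, was in 15% of single-list windows of MEIS2 (12.6 to 17.8), against 12.2% of its shared windows and 6.89% of all regions. Its relative MEIS1 had 12.0%, against 12.2% of its shared windows. The nuclear receptor site AGGTCA was in 13.6% of the 273 windows of NR1H2, an oxysterol receptor (10.0 to 18.1), against 6.64% of its shared windows and 9.18% of all regions.

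Other lists had their motif at least as often in their shared windows, which are those of their peaks in regions of 2 or more lists. The ETS site, CCGGAAG, was in 4 of 548 single-list windows of ELK3 (0.73%, 0.28 to 1.86), against 10.8% of its shared windows and 1.28% of all regions. ELK4, its relative, had 0 of 80, which allows a share of up to 3.75% (3 counts of 80, with a Wilson upper limit of 4.58%), against 14.5% of its shared windows. The CGCG box of CAMTA1 was in 5.23% (2.67 to 9.98) of 153 single-list windows, against 52.0% of its shared windows and 13.5% of all regions. HES6, a hairy relative, had CACGNG in 5.56% (4.28 to 7.18), against 17.2% of its shared windows and 10.3% of all regions, while HES4 had 14.3% (12.2 to 16.8), against 22.6%. E2F8, a repressive E2F, had GCGGGAA in 0.47% (0.25 to 0.89), against 3.22% of its shared windows and 1.06% of all regions. The NFI palindrome was in 3.0% (1.8 to 4.98) of NFIB's single-list windows, against 6.57% of its shared windows and 0.453% of all regions. The E-box CACGTG was in 7.35% (6.65 to 8.11) of MGA's single-list windows, against 8.03% of its shared windows and 2.85% of all regions.

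In 6 of the pairs that follow the share in single-list windows was below that of all regions, but the interval lay below it only in STAT5A and SRY. In the T-box pair of MGA and in EBF1, LHX6 and PBX3 the interval held the value of all regions. In DR4 no match was found, and in YBX3 the interval held the value of all regions. STAT5A, a cytokine-activated factor, had its site TTCNNNGAA in 1.03% of single-list windows (0.67 to 1.59), against 1.17% of its shared windows and 2.25% of all regions. For MGA's T-box site AGGTGTG the share was 2.61% (2.20 to 3.09), against 1.98% of its shared windows and 2.84% of all regions. SRY, the founding SOX protein, had AACAAT in 1.69% (1.05 to 2.74), against 1.02% of its shared windows and 3.29% of all regions. The site CCCNNGGGA of EBF1 was in 1 of 135 single-list windows (0.13 to 4.08), against 2.91% of its shared windows and 2.40% of all regions. LHX6, a LIM homeodomain protein, had TAATTA in 1 of 137 (0.13 to 4.02), against 0.20% of its shared windows and 1.16% of all regions. PBX3, a TALE homeodomain protein, had TGATTNAT in 1 of 153 (0.12 to 3.61), against 0.42% of its shared windows and 0.860% of all regions. The DR4 element was in 0 of 273 windows of NR1H2, which allows a share of up to 1.10% (3 counts of 273, with a Wilson upper limit of 1.39%), and in 0.0123% of all regions. YBX3 had the Y-box core ATTGG in 10.9% (7.27 to 16.1), against 5.98% of its shared windows and 9.82% of all regions.

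In 3 further pairs the single-list share was above that of all regions, and the interval held the value of all regions in TEAD2 and HSF4. TEAD2, a TEA-domain factor, had the MCAT element GGAATG in 10 of 102 single-list windows (9.80%, 5.41 to 17.1), against 6.37% of its shared windows and 5.84% of all regions. HSF4, a heat shock factor, had GAANNTTC in 2.63% (1.54 to 4.45), against 1.46% of its shared windows and 1.93% of all regions. KLF15 had the GC box GGGCGGG in 7.59% (4.29 to 13.1) of 145 single-list windows, against 13.4% of its shared windows and 4.05% of all regions. Of the 32 pairs, the interval lay above the share in the list's own shared windows in 9, held it in 13 and lay below it in 10.

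FOSL1, POU2F1, NFIB, MGA and MEIS2 ranked first for their motif (the E-box for MGA) among the 84 lists with at least 200 single-list regions. Some motifs were led by a list of another family, named here after the values were seen. NCOA2 led the forkhead site GTAAACA with 8.64% and the GATA site AGATAA with 14.7% of its single-list windows, against 2.46% and 3.84% of all regions. In windows placed every 20 kb in the genome the shares were 1.63% and 7.65%. The GC content of NCOA2's single-list windows averaged 40.4%, near the 40.8% of those genome windows. FOXC1, a forkhead protein, had GTAAACA in 0.57% of its own single-list windows. Single-list windows of L3MBTL4, an MBT domain protein with the highest single-list GC content of any list (64.1%), led the hairy box, the E2F site, the GC box and the CGCG box. A match of letters is a description and does not show that the protein bound there.

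**Figure D3:**
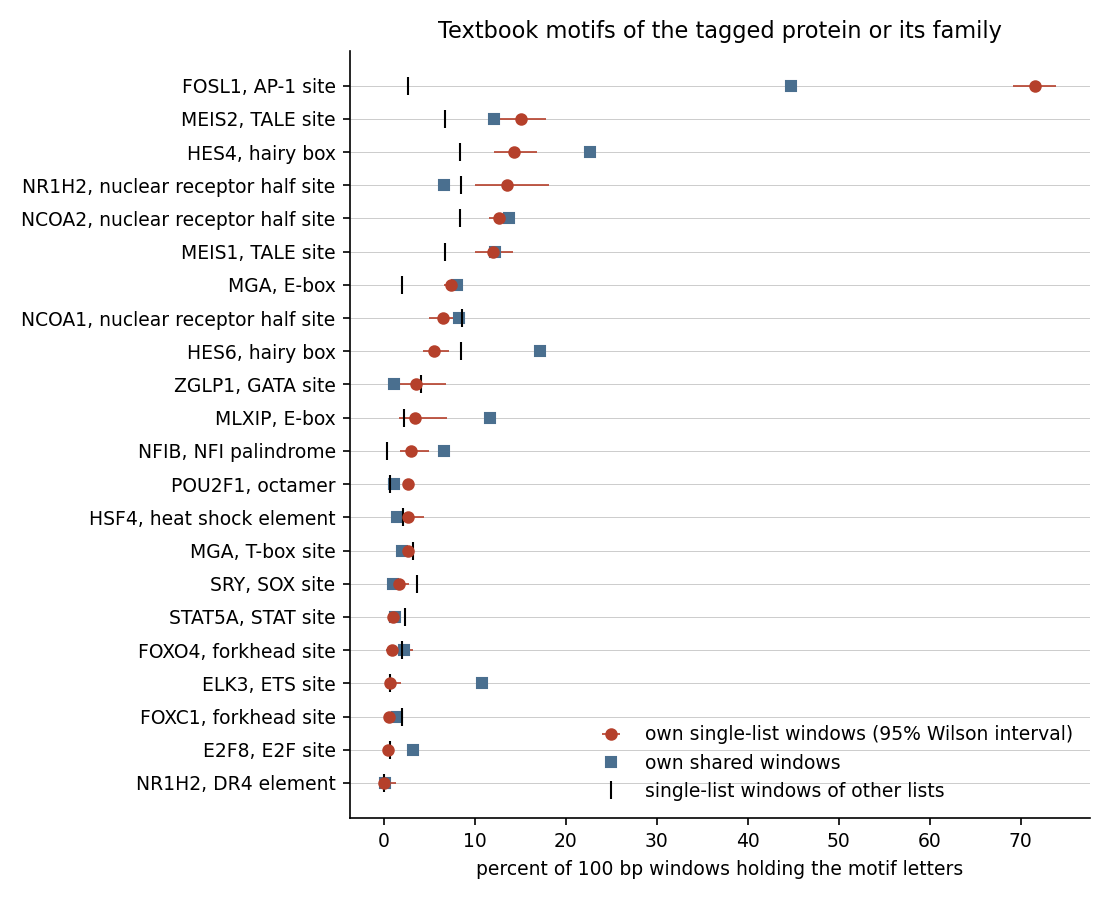
Percent of 100 bp windows that hold the letters of a motif (horizontal axis), for pairs of a list with at least 200 single-list regions and a motif of its protein family (vertical axis); red points are the list's own single-list windows with 95% Wilson intervals, blue squares its own shared windows and black ticks the single-list windows of other lists. FOSL1 lies at 71.6%, to the right of its shared windows, whereas ELK3, HES4, HES6 and MLXIP lie to the left of theirs.

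Single-list peaks lay at promoters less often than shared peaks, though more often than windows across the genome. A promoter here means a position within 500 bp of the canonical TSS of a GENCODE 44 gene, protein-coding or lncRNA. Of the single-list regions, 9291 (7.92%) had their midpoint at a promoter, next to 13.7% of all merged regions and 1.24% of windows placed every 20 kb in the genome. Within each list, 10.4% ± 5.06 of single-list peaks and 48.5% ± 11.5 of shared peaks were at a promoter (mean and SD over all preferred lists). The single-list share was lower in every preferred list, by 38.1 percentage points on average (two-sided sign-flip permutation test over lists, adjusted p = 1e-05 over 3 measures, the smallest that 100000 draws can give). Lists share their shared regions with each other, so the lists are not independent and the p-values are too small to that extent. Each shared region counts once for every peak in it, and regions of 31 or more lists held 49.4% of all peaks. Counted by region, 11.9% were at promoters with 2 lists, 22.3% with 6 to 30 and 59.2% with 31 or more. A lower promoter share of single-list peaks is thus in part built into the rule and the counting by peaks. The same limits hold for GC and high-copy share below. The lowest single-list shares were 2.07% in NCOA2 and 2.65% in FOSL1. The highest were 27.1% in ZNF593, a nuclear zinc finger protein, and 25.7% in THAP1, a THAP-type zinc finger protein. The median single-list region was 10495 bp from the nearest TSS, against 38795 bp for the windows across the genome. Of the single-list regions 57.0% were in introns, 13.4% in exons and 29.5% between genes.

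Single-list windows were also poorer in GC. Their GC content averaged 51.6% ± 5.19, against 62.1% ± 3.31 in shared windows of the same lists (SD over all preferred lists), and it was lower in every list (difference 10.5 points, adjusted p = 1e-05 by the same permutation test). Windows across the genome averaged 40.8%. The lowest single-list means were 39.8% in ZNF160 and 40.4% in NCOA2. Of the single-list windows 25% held no CpG, against 4.75% of the windows of regions with 31 or more lists.

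High-copy windows were more frequent in single-list peaks, with 17% ± 8.60, against 3.88% ± 2.71 in shared peaks (SD over all preferred lists). The single-list share was higher in all lists but 1 (difference 13.1 points, adjusted p = 1e-05 by the same permutation test), and PRDM4, with 1.22% of 82 peaks against 1.57%, was the exception. Over regions, 22% of single-list windows were high-copy, next to 17.2% of all merged regions and 30.6% of genome windows, so single-list windows were nearer to the genome's value than shared ones but below it. Reads from repeated sequence are harder to place, and its part in these lists was not tested. Among lists with at least 200 single-list windows the highest shares were 56.6% in ZNF865 (17.2% of its shared windows), 54.8% in ZFP90 (5.06%), 54.6% in ZMYM2 (21.3%), 42.1% in ZNF646 (14.6%) and 39.9% in ZNF850 (4.03%).

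**Figure D4:**
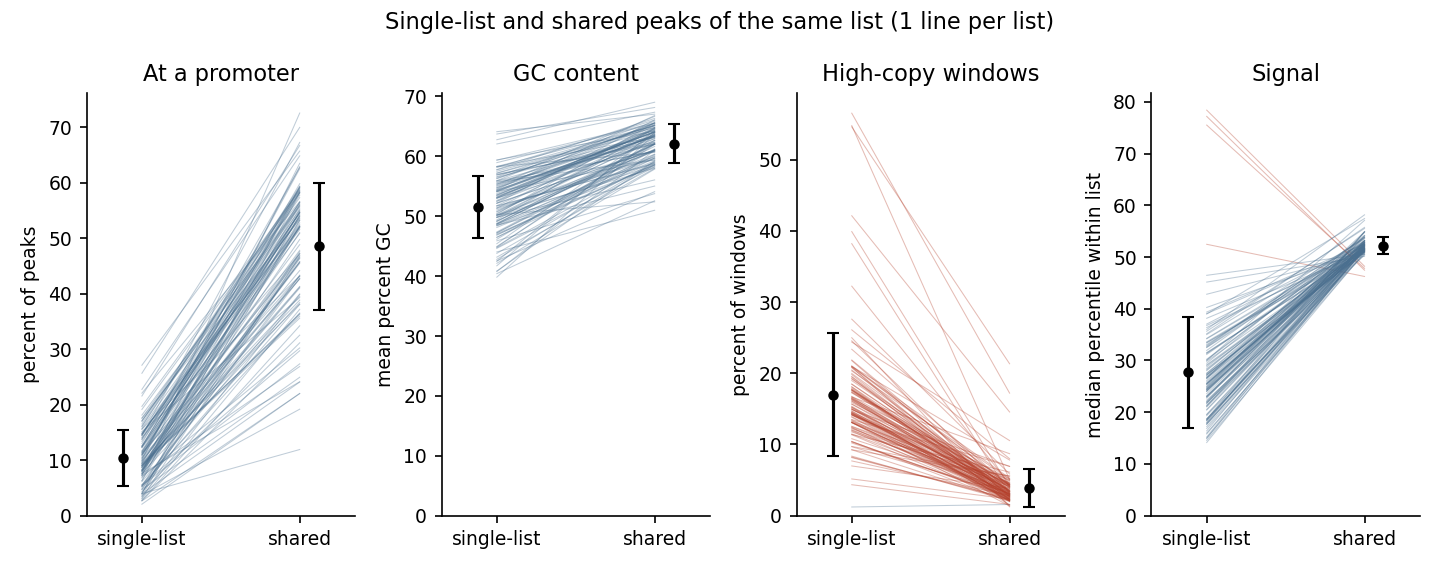
Single-list (left) and shared (right) peaks of each preferred list, joined by 1 line per list, for the percent at a promoter, the mean percent GC, the percent of high-copy windows and the median signal percentile; blue lines are lists lower in single-list peaks, red lines lists higher in them, and black points are means with SD over all preferred lists. Promoter share and GC were lower in single-list peaks of every list, high-copy share was higher in 120, and 3 red lines in the signal panel start at 75.5 or higher.

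The comparison of KRAB lists with other TF lists did not pass the test in either measure. The 3 lists of proteins with SCAN and KRAB domains were counted among the other TF lists. High-copy windows made up 18.8% ± 9.85 of single-list windows in 32 KRAB lists and 15.9% ± 7.30 in 74 other TF lists (SD, difference 2.85 points, two-sided permutation test, p = 0.0997, adjusted p = 0.199 over 2 measures). With those 3 lists moved to the KRAB lists the difference was 3.02 points (same permutation test, adjusted p = 0.148). With peaks of a score of 830 or more the difference was 6.13 points, with adjusted p = 0.0162. Promoter shares were 11.1% ± 4.95 in KRAB lists and 10.2% ± 5.00 in other TF lists (difference 0.91 points, adjusted p = 0.391).

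Regions just outside the rule, with 2 lists, lay between single-list regions and those with more lists. The 28430 regions with 2 lists had 11.9% at promoters, 54.0% GC and 16.6% high-copy windows, against 7.92%, 51.8% and 22% for the single-list regions. With 3 to 5 lists the values were 14.1%, 55.3% and 13%, with 6 to 30 lists 22.3%, 57.8% and 7.42%, and with 31 or more lists 59.2%, 64.1% and 2.0%. The distance to the nearest TSS had a median of 10495 bp with 1 list, 8070.5 bp with 2, 7893 bp with 3 to 5, 6019 bp with 6 to 30 and 279 bp with 31 or more. The pairs that met most often in 2-list regions were SALL1 with ZBTB12 (1071 regions), ZNF646 with ZNF865 (1054), SALL1 with ZMYM4 (670) and ZBTB12 with ZMYM4 (634), all among the 11 lists that owned most single-list regions.

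Single-list peaks were mostly weak in their list. Their median signal percentile was 26.1, against 52.6 for shared peaks, and 48.0% of them lay in the lowest 25% of their list. Per list the difference of the medians averaged −24.5 ± 11.4 points (SD over all preferred lists), and single-list peaks ranked lower in 117 lists. The median deposited score was 673 for single-list peaks and 843 for shared peaks. In the median list, 14.1% of the weakest 10% of peaks were single-list, against 0.07% of the strongest 10%.

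In 4 lists single-list peaks ranked above shared peaks. The median percentile was 78.4 for single-list and 48.2 for shared peaks in ZNF329, and 77.2 for single-list and 47.5 for shared peaks in ZFP90. ZNF160 had 75.5 for single-list and 47.8 for shared peaks, and ZNF865 had 52.5 for single-list and 46.2 for shared peaks. In the strongest 10% of peaks, 622 of 1375 peaks of ZNF329 (45.2%), 476 of 1299 of ZNF160 (36.6%) and 294 of 805 of ZFP90 (36.5%) were single-list. ZNF865 had 21.8% in its strongest 10% but 65.8% in decile 8. These are lists whose 8-mers are given above. In all 4 most single-list peaks overlapped no whole peak of another list: 86.3% in ZNF865, 80.8% in ZNF160, 75.9% in ZFP90 and 67.0% in ZNF329. The share was 25.9% in the median list, and 58.4% of all single-list peaks did overlap such a peak. It was not particular to these 4: FOSL1, whose single-list peaks ranked below its shared ones, had 74.2%, and ZMYM4 62.0%.

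**Figure D5:**
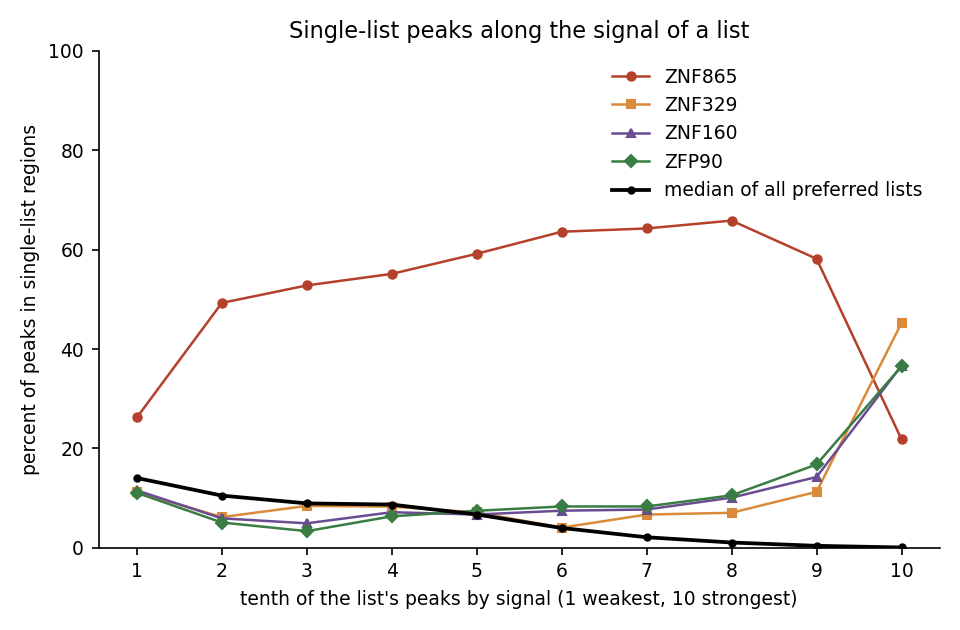
Percent of peaks in single-list regions (vertical axis) by decile of the list's peaks ordered by signal (horizontal axis, 1 weakest, 10 strongest), for the 4 lists whose single-list peaks ranked above shared peaks and, in black, the median of the preferred lists. The black line falls to 0.07% in the strongest decile, where ZNF329, ZNF160 and ZFP90 reach 45.2%, 36.6% and 36.5%.

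Many single-list regions lay close to other binding. Of the single-list peaks 58.4% overlapped the whole peak of another list although their centres did not meet, 52.0% of single-list regions had the midpoint of a shared region within 1000 bp (median distance 885 bp), and 9.58% had a region of 31 or more lists that near. Lists differed in this: 87.8% of the single-list peaks of HES6 and 79.1% of those of SMAD7 overlapped another list's peak, against 25.8% in FOSL1 and 13.7% in ZNF865. When whole peaks were merged in place of their centres, 43857 of 104411 regions (42.0%) had 1 list. ZNF865 then owned 9899, ZBTB12 4073 and SALL1 3361, and the promoter share of single-list peaks averaged 2.79%, against 46.6% of shared peaks (112 lists).

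The regions were spread unevenly over chromosomes. Chromosome 20 held 141.4 single-list regions per Mb, against an autosomal median of 32.4 and a low of 14.7 on chromosome 13. Shared regions were also densest there (97.3 per Mb), and the share of regions with 1 list was 59.2% on chromosome 20 and 52.3% on chromosome 19, the highest and lowest of the autosomes. In 105 lists chromosome 20 was the densest autosome in single-list regions. It held 9113 of all 117310 single-list regions. By list, it held 31% of ZNF334's single-list regions, 27.6% of YBX3's and 22.5% of NFIB's. Other short lists had shares as high, such as 35.5% of the 62 regions of ZUP1 and 29.7% of the 37 of ZBTB22. DNA copy number was not measured in these lists, and its part in the densities was not tested. Without chromosome 20, a setting added after the data were seen, 108197 of 196619 regions (55.0%) had 1 list.

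Among 9 gene families the share of regions with 1 list was highest at HOX genes and elsewhere near the overall 55.3% or lower. Of 55 regions within 5000 bp of a HOX TSS, the body-axis homeobox genes, 39 (70.9%) had 1 list and 0 had 31 or more. The share was 42.9% of 1630 regions at zinc finger genes, 42.5% of 167 at replication-dependent histone genes, 44.4% of 133 at cytochrome P450 genes, 44.3% of 1306 at solute carrier genes and 50.0% of 360 at cytosolic ribosomal protein genes. It was 55.0% of 40 at olfactory receptor genes, 57.1% of 56 at keratin genes and 53.3% of 15 at clustered protocadherin genes. The counts of the small families, HOX genes among them, were too low to set them apart, and no test was made.

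A single-list region within 2 kb of the end of the tagged protein's own gene was found in 2 of 120 lists with an annotated gene (1.67%), beside 0.458% for the other lists at the same genes. In HES6 it was at chr2:238239669-238239768, 1451 bp from the gene's end, and lists there numbered 97 in all. In MEIS2 it was at chr15:36888179-36888278, 976 bp from the gene's end, where MEIS2 was the only list.

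The 6 non-preferred lists did not enter the merge and had few peaks at single-list regions. EP300, a histone acetyltransferase, had a peak at 807 single-list regions (0.69%), against 2.24% of 2-list regions and 7.59% of all merged regions. ZNF431, a zinc finger protein, had a peak at 501 (0.43%), against 1.09% of 2-list and 5.43% of all regions. TSC22D2 had a peak at 327 (0.28%), against 0.81% of 2-list and 4.77% of all regions. ZZZ3 had a peak at 291 (0.25%), against 0.60% of 2-list and 3.90% of all regions. TUT4, a terminal uridylyltransferase, had a peak at 0.22%, against 0.56% of 2-list and 3.07% of all regions. GPBP1L1, a list of 73 peaks, had a peak at 17 (0.014%), against 0.011% of 2-list and 0.0231% of all regions. The mean was 0.31% ± 0.23 of single-list regions and 0.88% ± 0.75 of 2-list regions (SD, n = 6 lists), with a lower value at single-list regions in 5 of 6. A region counted as hit when a peak's window overlapped it, and 2-list regions were wider (median 135 bp, against 100 bp for single-list regions). The part of width was not tested. The difference of 0.57 points did not pass the exact two-sided sign-flip test (p = 0.0625, where 0.03125 is the smallest that 6 lists allow). With whole peaks, with an overlap of at least 50 bp and without chromosome 20 it did, each with exact p = 0.03125. EP300 moved the value most: without it the difference was −0.38 points (exact p = 0.125 over 5 lists). At regions of 31 or more lists, 5 of the 6 lists had a peak at 36.9% to 59.9% of regions, and GPBP1L1 at 0.14%.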

How the data were processed

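Peaks were called by the authors against input libraries with the pipeline of ENCODE (hg38). Not given in the sources used here are the aligner, the caller and any version. The deposited narrowPeak lists give for each peak a score (540 to 1000, which follows the irreproducible discovery rate), a signal against its own input, and a q column treated as a score, since 43 lists hold negative values in it. The deposited signal is not scaled between lists and served only to rank peaks within a list. Replicates are not listed apart and depth is unknown.

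Central 100 bp windows were merged where they overlap or touch, on chromosomes 1 to 22, X and Y. Peaks that repeat a list's coordinates were kept and count as 1 list. Genes were taken from GENCODE 44 and sequence from hg38. Calculations used scipy 1.17.1, pandas 2.3.3 and numpy 2.4.6 under Python 3.11.15, and the statistics were tested on simulated data. Paired measures were compared over the 121 lists with at least 20 single-list and 20 shared peaks by sign-flip permutation, families by permutation of list labels (100000 draws each), and the 6 non-preferred lists by an exact sign-flip test. P-values were adjusted by Benjamini-Hochberg. The KRAB lists were named from the proteins' known domains, and proteins with both SCAN and KRAB domains were not counted as KRAB in the main comparison.

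Lists were named by rule: the 10 owning most, the 10 highest and 5 lowest shares, those with a textbook motif, the 5 highest high-copy shares and those with a region at their own gene. The members, lists and rules were chosen with earlier results of these data known. Alternatives changed the part of the peak merged, the overlap, the score, q and signal thresholds, the lists used, the promoter, the copy number and the minimum per list. Inputs entered only as labels. Chromatin, reporter and expression data were not analysed here. Some windows are not reported here.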

Additional observations from a re-analysis of the deposited data

How the results depend on the processing

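The lower promoter share and GC and the higher high-copy share of single-list peaks kept their direction and passed the test under all of their 14, 12 and 14 alternatives (differences of −43.8 to −32.3, −10.9 to −7.54 and 8.78 to 23.3 points). All of these still set single-list against shared peaks and count by peaks, so the limits given with the promoter shares hold for them too. Passing the test is thus in part built in. The signal percentile, which was not tested, was lower under all of its 12 alternatives (−25.2 to −14.4 points). The number of single-list regions ranged widely with the merging: 43857 with whole peaks, 182333 with an overlap of at least 50 bp, 64364 with a score of 830 or more and 53130 with the 5000 strongest peaks of each list, and it was within 1.5 times of 117310 in the other 7 settings, including without ZNF865 and without chromosome 20, both added after the data were seen. Of the counts owned by the 10 lists that owned most, 30 of 105 moved by over 1.5 times, and with the 5000 strongest peaks per list, which shortens long lists and drops their weakest peaks, ZNF865 owned 2967 and SALL1 73. The difference between KRAB and other TF lists in high-copy share passed the test in 1 of 16 alternatives (6.13 points with a score of 830 or more), and that in promoter share changed sign with whole peaks (−0.51 points, adjusted p = 0.435). The difference at the non-preferred lists passed the exact test with whole peaks (−0.66 points), with an overlap of at least 50 bp (−0.92 points) and without chromosome 20 (−0.58 points), each with exact p = 0.03125, and leaving out each of the 6 lists in turn gave −0.69 to −0.38 points, the last without EP300. The cause of these changes was not tested. Within lists that share an input library the KRAB differences were 2.75 points in high-copy share (adjusted p = 0.388) and 0.47 points in promoter share. Depth is unknown, so the limits of detection of a list cannot be given, and single-list status is a property of these lists and this merge.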
